A study of Homo sapiens with 3 samples.

Results

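Transcript levels in MM1S cells cultured with 10 nM FK866 for 24 h were compared with those in untreated MM1S cells, across all genes of an Affymetrix array. The comparison uses 2 of the 3 arrays of the series, 1 for each group, chosen by their labels. The array of cells given 10 nM FK866 for 6 h enters only as a value set beside the other 2. MM1S is an established human multiple myeloma cell line, and the 3 samples were grown in the same supplemented RPMI-1640 medium. The untreated sample is labelled 0 h. With 0 untreated arrays at 24 h, FK866 cannot be told apart from time in culture or the age of the medium. With 1 array a group there is no replicate and no test, and so few arrays limit how precise any value is.

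FK866 blocks NAMPT, the enzyme that turns nicotinamide back into the precursor of NAD. Cells need NAD to carry electrons in glycolysis and respiration, and the PARP, sirtuin and CD38 enzymes consume it, so that blocked salvage drains the pool within hours to days. Myeloma cells are malignant plasma cells, which secrete immunoglobulin and depend on the transcription factor IRF4. The comparison asks which transcripts stood at another level after a full day of NAMPT inhibition.

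Signals are in arbitrary units, and differences are log2 values, 24 h minus untreated, with signals under 16 set to 16. A gene is read by its brightest probe set. Main results concern 5530 genes whose mean log2 signal over the 3 arrays reached 8, called bright genes here. Their median difference was -0.12, and every difference is to be read against this shift between the arrays. The middle 50% of bright genes lay between -0.29 and 0.05, and 95% between -0.86 and 0.51. Where a gene had several bright probe sets, their differences scattered with a pooled SD of 0.20 (1860 genes), which covers probe error and isoforms but not variation between cultures.

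At 24 h, 86 of 5530 bright genes were at least 2-fold lower than in untreated cells (1.56%) and 15 at least 2-fold higher (0.271%). The median signal of the lower genes was 1317 untreated and 426 at 24 h, and that of the higher genes 252 and 601. The level limit counts all 3 arrays, so these medians follow in part from the choice of genes: 8 of the 15 higher genes were under the limit in untreated cells. On the lower side 12 genes passed 4-fold, and on the higher side 0 did. The split between lower and higher depended on the scaling. It was 63 and 27 after quantile normalization, 53 and 45 after centring each array on its median, and 67 and 21 after subtracting the median difference of bright genes.

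**Figure D1:**
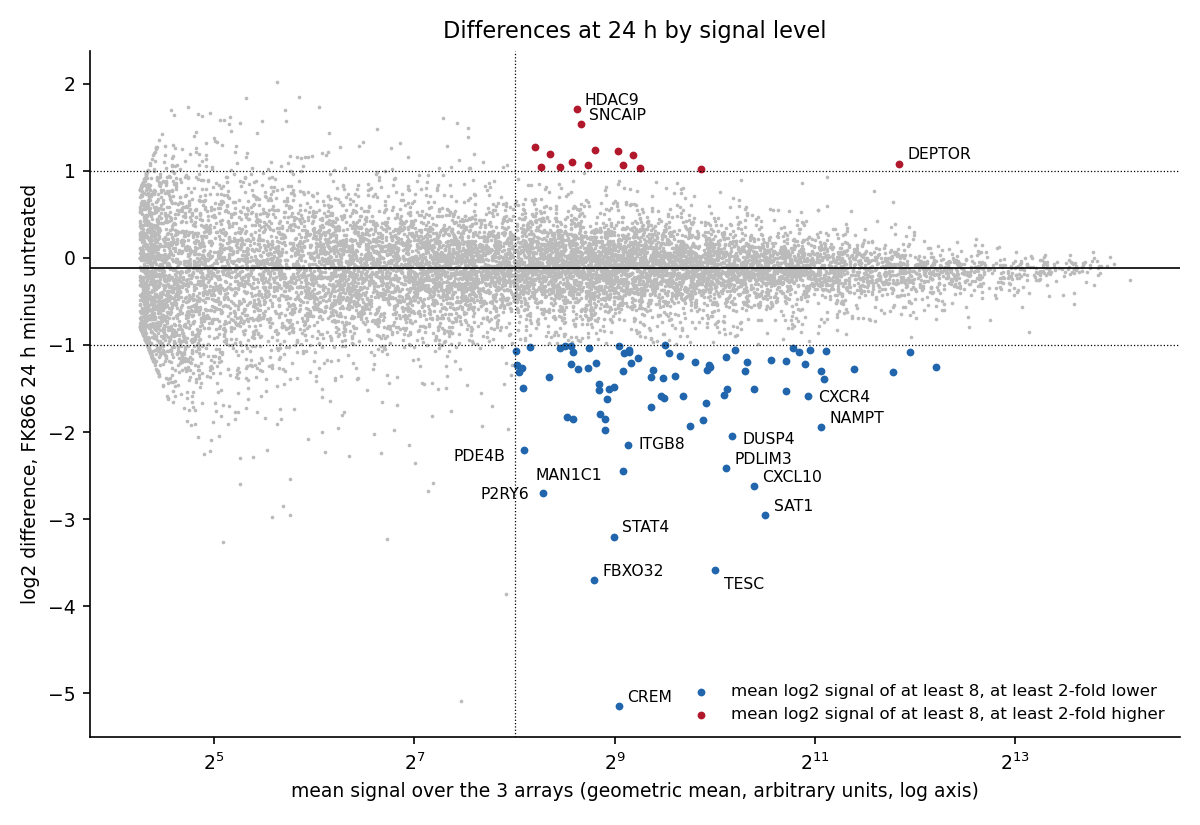
Log2 difference between FK866 24 h and untreated cells (vertical axis) against the geometric mean signal over the 3 arrays (horizontal log axis) for 11883 genes. Dotted lines mark 2-fold and a mean log2 signal of 8, the solid line marks the median of bright genes, -0.12, and CREM lies lowest at -5.15.

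The scatter narrowed with signal. The interquartile range of the differences was 0.93 for genes with a mean signal of 16 to 32 and 0.23 at 2048 or more. At least 2-fold lower were 10.7% of genes in the dimmest of these classes and 0.737% (8 genes) in the brightest. At least 2-fold higher were 2.76% in the dimmest class and 0.0921% (1 gene, DEPTOR) in the brightest. Over all 11883 measured genes, dim ones included, 495 were at least 2-fold lower (4.17%) and 135 higher (1.14%). These became 264 and 288 after quantile normalization and 237 and 358 after centring, so over all measured genes the balance turned with the scaling.

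The untreated and 24 h arrays both carried the transcripts of plasma cells. All 12 plasma cell markers lay above the floor of 16 on both arrays, and 11 had an untreated log2 signal of 8 or more. JCHAIN, which joins immunoglobulin chains, had the highest untreated signal among them, 12686. Myeloid markers reached at most 34.7 (FCER1G), T and NK cell markers at most 33.7 (PRF1) and B cell markers at most 185 (CR2) in untreated cells. Of 15 stroma markers, 6 were at or under the floor untreated and 8 at 24 h, and their summed signal was 1562 and 778. FN1, described below, gave 902 of the untreated sum and at most 203 of that at 24 h. The part of other cells in any result was not tested. As a measure of RNA integrity, the 3' probe set exceeded the 5' one by a log2 value of 0.24 untreated and 0.32 at 24 h for GAPDH, and by 2.25 and 2.33 for ACTB. The 12 hybridisation spikes, added after labelling, had a median difference of -0.19.

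NAMPT, the target of FK866, had signals of 5473 untreated, 1248 at 6 h and 1423 at 24 h. Both treated arrays were low, and the 24 h difference was -1.94. A second bright probe set read 5224, 1335 and 1334. Of the 6 bright genes of NAD synthesis, NAMPT alone was past 2-fold. NMRK1, a nicotinamide riboside kinase, lay at -0.53, and the NAD kinase NADK at -0.28. PNP, which splits nicotinamide riboside, lay at -0.15. The mitochondrial kinase NADK2 stood at 0.14 and TDO2, which opens the tryptophan route to NAD, at 0.50. The 7 bright NAD consumers lay between -0.44 and 0.18, with 0 past 2-fold in either direction.

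CREM stood lowest of all bright genes. The gene encodes transcription factors of the cAMP response, among them the short repressor ICER, which is made from a promoter inside the gene that carries cAMP response elements. ICER represses that promoter in turn. The brightest CREM probe set read 2973 untreated, 587 at 6 h and 83.7 at 24 h, a difference of -5.15. Of the other 4 probe sets, 3 lay between -4.43 and -3.75. The remaining one read 650, 527 and 376 and differed by only -0.79. It was the value of CREM without probe sets that may cross-hybridise, as the brightest of those left. A dimmer one left in that setting, among the 3, read 426.4 untreated, 80 at 6 h and 26.7 at 24 h. The large difference was thus not limited to probe sets that may cross-hybridise. Which CREM transcripts each probe set reads was not examined.

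Other cAMP genes lay low beside CREM, though most within 2-fold. The list of cAMP response genes and phosphodiesterases had 17 bright members with a median of -0.46. Of these, 14 lay below the median of bright genes, 2 were at least 2-fold lower (1.56% over all bright genes) and 0 higher. All gene lists were chosen with earlier results of these data known, and some genes are in several. List counts here and below therefore describe the members and are no test of the list. PDE4B, a phosphodiesterase that degrades cAMP and is itself cAMP-responsive, read 725 untreated, 179 at 6 h and 157 at 24 h. Its difference of -2.21 was already reached in most part at 6 h. PRKAR2B, a regulatory subunit of protein kinase A, lay at -0.81 and the salt-inducible kinase SIK3 at -0.73. The coactivator EP300 and the kinase SIK1, both part of CREB-dependent transcription, lay at -0.70 each. On the other side, the catalytic subunit PRKACB stood at 0.40 and the adenylyl cyclases ADCY7 and ADCY3 at 0.31 and 0.20. PDE3B, another phosphodiesterase, was too dim for the bright genes. It was picked after its values were seen, with signals of 336, 163 and 56.0 and 3 probe sets between -2.67 and -1.42.

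The full cAMP response element, TGACGTCA, is a palindrome bound by CREB, CREM and related factors. It was searched for on both strands in RefSeq promoter windows (GRCh38.p14) from 250 bases before to 50 bases after each annotated start. Among all bright genes with a window, 207 of 4737 genes and 3.24% of windows held it. Among genes at least 2-fold lower, 8 of 72 genes and 6.98% of windows did, and among the higher genes 0 of 14 genes. The shorter letters TGACG, with which the element begins, occurred in 35.7% of windows of lower genes, 35.2% of all and 10.7% of higher ones. By gene, these were 34 of 72, 2104 of 4737 and 3 of 14. The shorter letters were thus about as frequent in lower genes as in all bright genes, unlike the full element. These shares describe the windows, and a match says nothing about binding in these cells. Of the 30 lowest genes, 23 had a window, and 4 of these held the element. They are printed to show where it lies, 5′ to 3′ on the gene's strand, with the element in capitals.
CREM, chr10:35195841-35195870, plus strand, element 50 bases before an annotated start: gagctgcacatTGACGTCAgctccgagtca
PDLIM3, chr4:185535508-185535597, minus strand, element 48 bases before the start: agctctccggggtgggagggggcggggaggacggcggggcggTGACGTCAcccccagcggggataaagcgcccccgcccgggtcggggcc
FN1, chr2:215436204-215436293, minus strand, element 183 bases before the start: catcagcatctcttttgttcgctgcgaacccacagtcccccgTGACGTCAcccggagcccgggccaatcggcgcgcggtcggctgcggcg
FAT1, chr4:186726705-186726794, minus strand, element 56 bases before the start: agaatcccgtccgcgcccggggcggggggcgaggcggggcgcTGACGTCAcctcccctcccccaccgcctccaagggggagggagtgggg
CREM has 7 annotated starts, and the element lies in the windows of 2 of them, 50 bases before one and just past the other, so a shorter stretch is printed. The other lower genes with the element were SYAP1, JOSD1, WSB1 and SKIL.

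The 3 other carriers among the lowest genes encode a protein each of the cytoskeleton, the matrix and the cell surface. PDLIM3, an actin-associated PDZ and LIM domain protein, read 2358 untreated, 1292 at 6 h and 443 at 24 h. Its 3 probe sets lay between -4.86 and -2.10, so that all showed a low 24 h signal but disagreed on its depth. FN1, the matrix protein fibronectin, read 798, 675 and 203 (-1.97), high in untreated and 6 h cells and low only at 24 h. Its 6 probe sets lay between -2.30 and -0.58. FAT1, a giant protocadherin, read 1907, 829 and 527 (-1.86).

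Receptors and regulators of G protein signalling sit upstream of cAMP and calcium. The list had 19 bright members with a median of -0.23, 5 at least 2-fold lower (1.56% over all bright genes) and 0 higher (0.271%). P2RY6, a receptor for extracellular UDP, read 745 untreated, 353 at 6 h and 115 at 24 h (-2.70). CXCR4, the chemokine receptor that holds plasma cells in bone marrow, read 3031, 2413 and 1013. Its 3 probe sets agreed, between -1.58 and -1.45. RGS2 and RGS1, which shorten G protein signals, were very bright. RGS2 read 3854, 1846 and 1469 (-1.39), and RGS1 read 7973, 3959 and 3333 (-1.26) with a second probe set at -1.53. GNA12, a G protein alpha subunit, lay at -1.30, with a dimmer probe set at -0.25. The members that lay low thus include both receptors and their inhibitors. The chemokine receptor CCR2 lay at -0.65, and GNB2, a G protein beta subunit, was the highest member at 0.04.

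Feedback regulators of ERK, the last kinase of the growth-factor cascade, were split. DUSP4, a nuclear phosphatase induced by ERK, read 2919 untreated, 750 at 6 h and 706 at 24 h (-2.05), with 3 probe sets between -2.68 and -1.56. DUSP5, also nuclear, read 6033, 3265 and 3216 (-0.91). DUSP6, the cytoplasmic phosphatase of the same family, was on the other side with 219, 325 and 344 (0.65). The list of 9 bright members had a median of -0.46. Of these, 2 were at least 2-fold lower (DUSP4 and IER5), against 1.56% of all bright genes, and 0 higher. The immediate early factors, 21 bright genes, had a median of -0.16. Among them ARRDC3 (-1.58) and TSC22D3 (-1.29) were past 2-fold, whereas MAFF stood at 0.85.

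RAPGEF2, an exchange factor for Rap, read 2054 untreated, 669 at 6 h and 646 at 24 h (-1.67), though it reached only -0.99 without probe sets that may cross-hybridise. RASGRP3, an exchange factor for Ras that responds to diacylglycerol, stood higher with 341, 748 and 775 (1.19). Both had reached their 24 h level at 6 h.

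**Figure D2:**
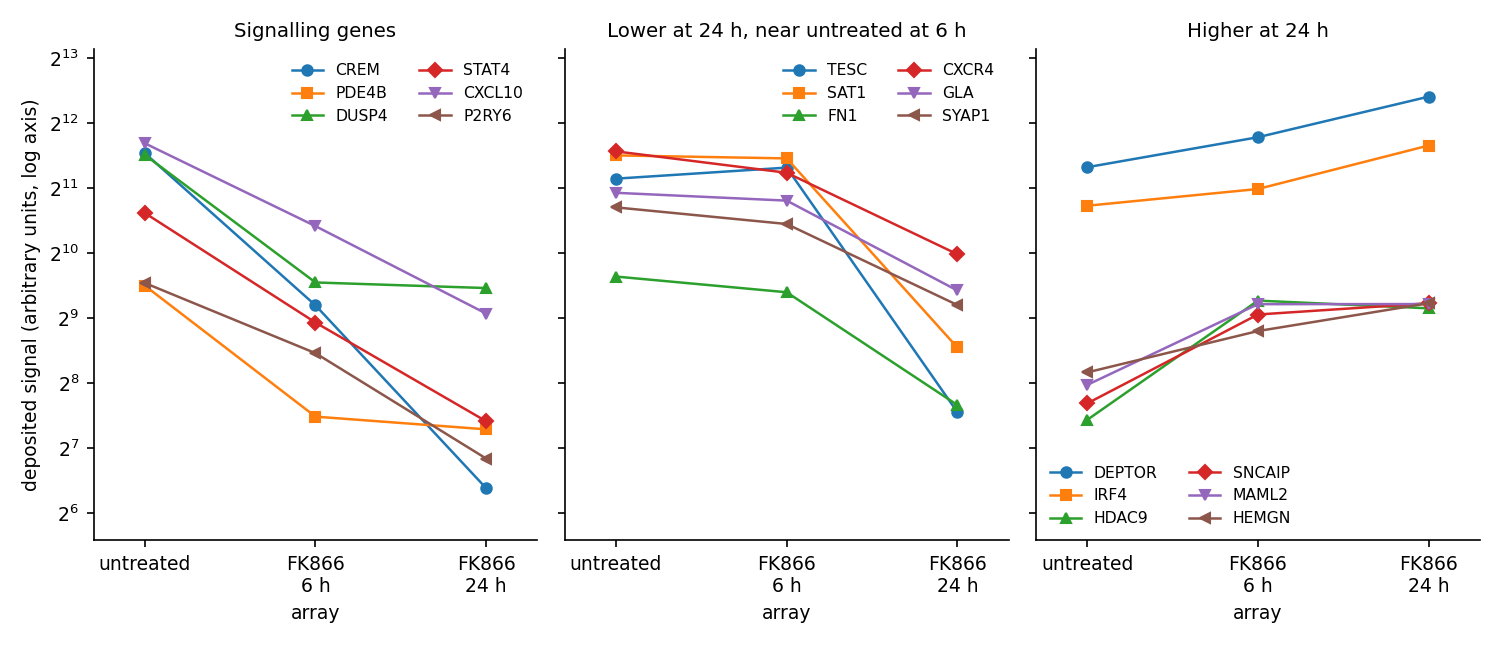
Deposited signal (vertical log axis, arbitrary units) of 18 genes on the untreated, FK866 6 h and FK866 24 h arrays, 1 array each, with lines joining the values of a gene. In the left panel the signalling genes were low on both treated arrays, in the middle panel TESC, SAT1, FN1, CXCR4, GLA and SYAP1 were nearer to untreated at 6 h than at 24 h, and in the right panel DEPTOR reads 2560 untreated and 5429 at 24 h.

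In the list of JAK-STAT genes and cytokine receptors, 3 of 20 bright members were at least 2-fold lower, against 1.56% of all bright genes, and 0 higher. STAT4, which carries signals of IL-12 and interferon to the nucleus, read 1571 untreated, 489 at 6 h and 171 at 24 h (-3.20). IL21R, the receptor of a plasma cell growth factor, read 794, 285 and 223, with 3 probe sets between -1.83 and -1.41. IFNGR1, a chain of the interferon gamma receptor, lay at -1.27. The kinase JAK1 (-0.78) and STAT3 (-0.71), which serve IL-6 in myeloma cells, lay within 2-fold. The phosphatase PTPN6 (0.44) and IL10RB (0.41) were the highest members, and the list median was -0.20.

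CXCL10, a chemokine induced by interferon and NF-kB, read 3303 untreated, 1366 at 6 h and 538 at 24 h (-2.62). NFKB1, a subunit of NF-kB, lay at -0.98 and the chemokine CCL5 at -0.96. The NF-kB list had a median of -0.16 over 16 bright genes, close to that of all bright genes, with CXCL10 as its 1 member past 2-fold. This depended on the choice of probe sets. By the mean over kept probe sets the list median was -0.36 over 11 genes, against -0.14 for all bright genes. Without probe sets that may cross-hybridise it was -0.52 over 8 genes, against -0.12. Whether the fewer members moved it was not tested. HIVEP1, a zinc finger protein that binds NF-kB sites, read 1210, 232 and 350 (-1.79). The interferon-stimulated list had a median of 0.06 over 16 genes, 11 of them above the bright median. IRF1, an interferon-induced activator, lay at -1.04 there, with a second bright probe set at -0.58. By contrast, SAMD9 stood at 0.79, IFIT5 at 0.68 and GBP1 at 0.57.

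FOXO factors switch on genes of protein breakdown, cell cycle exit and stress defence when growth-factor signalling is low. FBXO32, a ubiquitin ligase subunit of muscle wasting, read 988 untreated, 1170 at 6 h and 76.1 at 24 h by its brightest probe set (-3.70). A second bright one read 1213, 348 and 63.8. All 6 probe sets were low at 24 h, from -4.25 to -2.44. At 6 h the brightest differed by 0.24, whereas the other 5 lay between -2.51 and -1.04, so its 6 h value stood alone. ARRDC3, an arrestin-domain protein, read 1305, 619 and 436 (-1.58). The cyclin CCNG2 lay at -1.48 with probe sets on both sides of 0, and CITED2 at -1.21. BCL2L11, the pro-apoptotic BIM, read 2165, 1228 and 1193, and its 7 probe sets lay between -1.68 and -0.86. SESN1, a stress-induced inhibitor of mTORC1, was on the other side at 0.60, as was GADD45B at 0.45. The FOXO list had 23 bright members and a median of -0.49. Of these, 5 were at least 2-fold lower (1.56% over all bright genes) and 0 higher (0.271%). The 5 are FBXO32, ARRDC3, CCNG2, CITED2 and SAT1, which is described below with the polyamine genes. ARRDC3 was also counted among the immediate early factors. By the mean over kept probe sets, which left 16 bright members, the list median lay 0.01 above that of all bright genes. It lay below in the other settings. Whether the fewer members or the averaging moved it was not tested.

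SAT1, which starts the breakdown and export of polyamines, had signals of 2904 untreated, 2812 at 6 h and 375 at 24 h. Untreated and 6 h cells were alike and 24 h cells were low, by all 3 probe sets (-3.48 to -2.95). The synthesis enzymes ODC1 (-0.12) and SMS (-0.10) lay at the level of the other bright genes. Of 12 bright polyamine genes, SAT1 alone was past 2-fold. TESC, an EF-hand calcium-binding protein, followed the same course with 2266, 2549 and 188 (-3.59), read by 1 probe set. ATP2B1, the calcium pump of the plasma membrane, read 946, 382 and 333, with 3 probe sets between -1.51 and -1.22. The other 21 bright calcium and lipid signalling genes lay within 2-fold, and the list median was -0.07.

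ITGB8, an integrin subunit that activates TGF-beta, read 1445 untreated, 378 at 6 h and 327 at 24 h (-2.15). EZR, which ties actin to the membrane, read 2801, 1714 and 972. Its 4 bright probe sets lay between -1.70 and -1.53, and a dim one at -0.65. STAP1, an adaptor of B cell receptor signalling, read 1654, 900 and 434 (-1.93). GJB2, a gap junction connexin, read 1624, 632 and 542 (-1.58), and SCNN1G, a sodium channel subunit, read 1089, 332 and 302 (-1.85). BTBD3, a BTB domain protein, lay at -1.85 and the little-studied ZSWIM6 at -1.62. The list of 48 bright actin and adhesion genes had a median of -0.16, close to that of all bright genes, with EZR and RHOB past 2-fold and RND3 (0.44) and DOCK10 (0.42) on the higher side.

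MAN1C1, a Golgi mannosidase that trims N-glycans, read 1349 untreated, 482 at 6 h and 247 at 24 h (-2.45), with a second probe set at -1.71. GALNT3, which starts mucin-type O-glycans, lay at -1.60 by its bright probe set and -0.06 by another near the floor (25.3 untreated, 24.2 at 24 h). GOLIM4, a Golgi membrane protein, lay at -1.58, and GOLGA8A, a golgin of a family of near-identical copies whose probes may be shared, at -1.71. B4GALT1, a galactosyltransferase, lay at -1.20, and its 4 probe sets all passed 2-fold. All but the brightest were near the floor, at 39.1 to 47.1 untreated and 17.1 to 20.8 at 24 h. By contrast, the 58 bright genes of ER chaperones, the unfolded protein response and secretion had a median of -0.20 and 0 members past 2-fold in either direction. SEC24D (-0.82), a coat protein of ER exit, and XBP1 (-0.79) were the lowest of them.

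Agreement between probe sets set limits on single genes. Of the 86 lower genes, 26 had 1 kept probe set. Of the other 60, all probe sets passed 2-fold in 24, all lay on the lower side in 54, and signs were mixed in 6. Counting bright probe sets alone, 25 lower genes had several, and in 24 of them all pointed the same way. Among genes whose kept probe sets all passed 2-fold, FBXO32 had the most, 6. DAPP1, an adaptor of PI3-kinase signalling, and B4GALT1 followed with 4 each, though all but the brightest of B4GALT1 were near the floor. Of the 15 higher genes, 12 had several probe sets, all past 2-fold in 5, and mixed in sign for DIPK1A, LCORL and TCAF1. SQSTM1 (-1.30), LMNA (-1.49) and CCNG2 (-1.48) were past 2-fold by the brightest probe set but had at least 1 other that did not lie below 0. Across the 8 alternatives of scaling, floor and probe set choice, 40 of 86 lower and 5 of 15 higher genes stayed past 2-fold in each one that gave them a value.

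**Figure D3:**
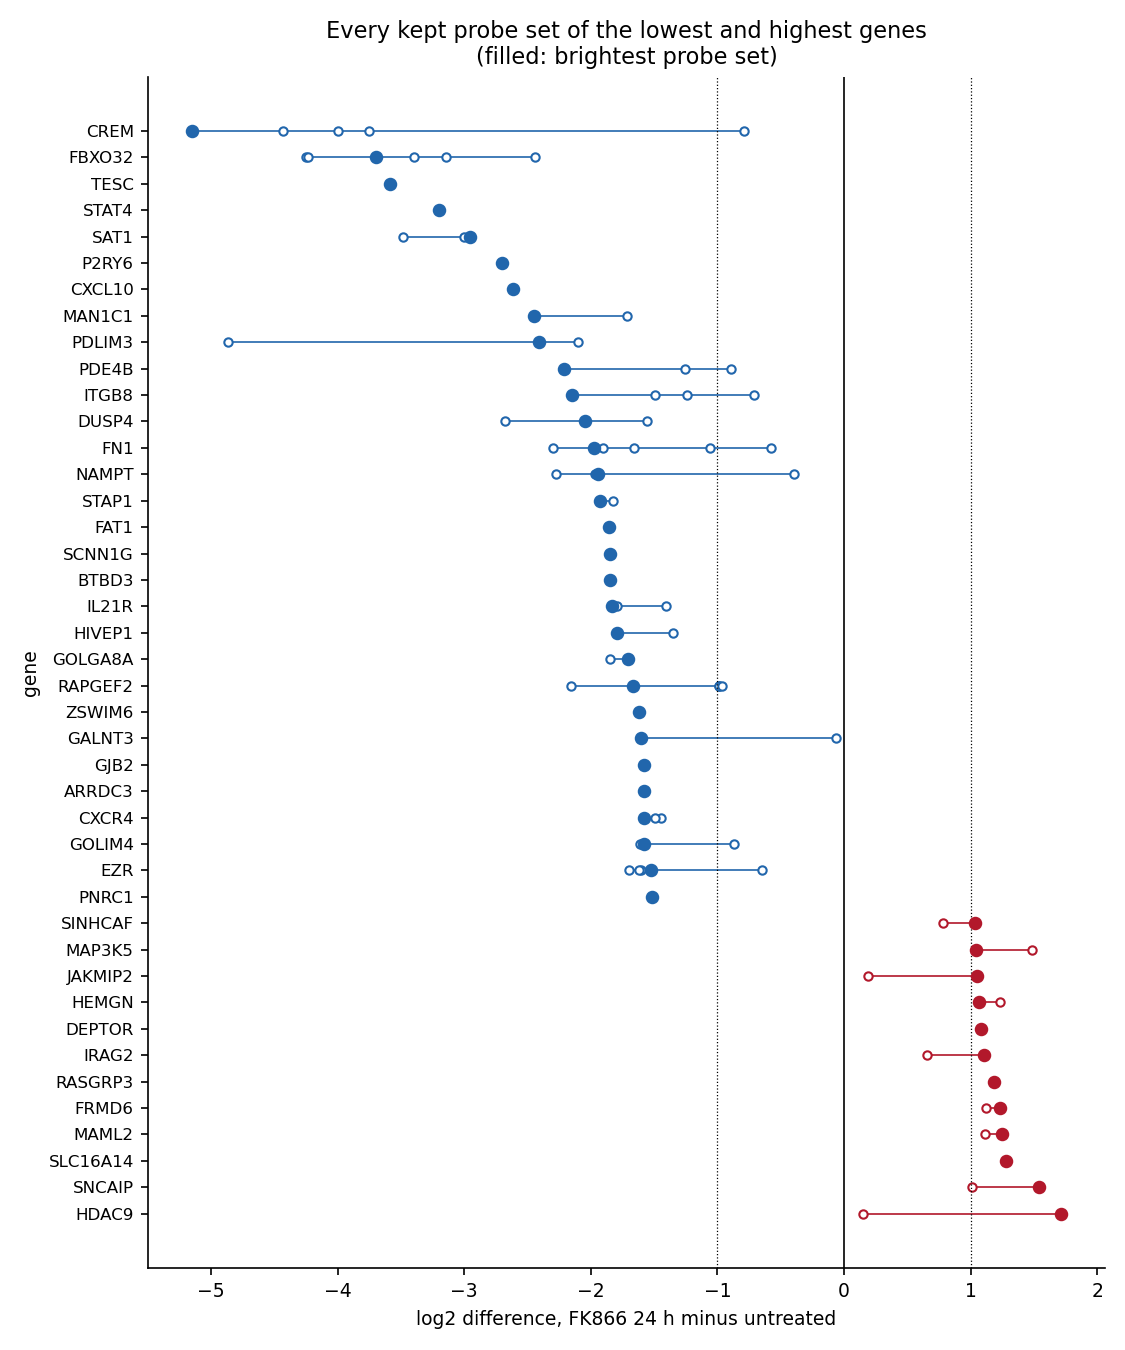
Log2 difference between FK866 24 h and untreated cells (horizontal axis) of each kept probe set of the genes named as lowest and highest (rows), with the brightest probe set filled and lines spanning the range. The 6 probe sets of FBXO32 lie between -4.25 and -2.44, whereas 1 of the 5 of CREM lies apart at -0.79.

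Some genes stood well above the floor in untreated cells but had a mean signal under the bright limit, and these were picked after their values were seen. DNAAF1, a dynein assembly factor of cilia, read 545 untreated, 635 at 6 h and 8.4 at 24 h, under the floor, and was at least 34.1-fold lower by its 1 probe set. CSRP2, a LIM domain protein, read 651, 480 and 44.7 (-3.86). LIMA1, which stabilises actin, read 310, 113 and 60.4 (-2.36). DNAAF1 and CSRP2 kept most of their signal at 6 h, and LIMA1 did not.

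Transcripts of the mitochondrial genome lay low as far as they were measured, a list added after values were seen. Of 13 such protein genes, 7 were bright, all below the median of bright genes, with a list median of -0.71. COX3 read 1184 untreated and 457 at 24 h (-1.37), ATP6 read 6146 and 2483 (-1.31), and ND2 read 6384 and 3012 (-1.08). The brightest, COX1, read 15455 and 10721 (-0.53), and COX2 read 14537 and 10957 (-0.41). The differences were thus unequal, although these 5 genes share a transcript precursor. Probes can also match nuclear copies of mitochondrial sequence. Nuclear genes of the respiratory chain had a median of -0.12 over 66 genes, mitochondrial ribosomal proteins -0.07 over 71 genes, and both lists had 0 members past 2-fold in either direction.

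Regulators of transcription and chromatin included single genes at both ends. HEXIM1, which holds the elongation factor P-TEFb inactive, read 813 untreated, 404 at 6 h and 297 at 24 h, with probe sets at -1.45 and -1.39. HDAC9, a class II histone deacetylase, stood highest of all bright genes with 173, 618 and 569 (1.71), although its dim second probe set differed by 0.15. SINHCAF, a subunit of a SIN3 deacetylase complex, read 408, 674 and 833 (1.03). The methyltransferase EZH2 lay at -0.69 and KMT2E at -0.86, while the demethylase KDM1A stood at 0.38. The 43 bright chromatin genes had a median of -0.24. PNRC1, a nuclear receptor coactivator, read 729, 523 and 255 (-1.52). RNA splicing factors lay slightly low together, with a median of -0.26 over 50 genes, 41 of them below the median of bright genes, and 0 past 2-fold in either direction. The kinase CLK1 (-0.73), RBM39 (-0.69) and HNRNPH1 (-0.68) were the lowest of these, and HNRNPF (0.38) was the highest.

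MM1S cells are known to respond to glucocorticoids. The list of the receptor and responsive genes had 14 bright members with a median of -0.42. Of these, CXCR4 and TSC22D3 were at least 2-fold lower (2 genes, against 1.56% of all bright genes) and 0 higher. Both were already counted above, CXCR4 with G protein signalling and TSC22D3 with the immediate early factors. NR3C1, the receptor itself, read 3199 untreated, 1740 at 6 h and 1964 at 24 h, with 5 probe sets between -1.10 and -0.41.

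Among the higher genes, DEPTOR was the only one already bright in untreated cells at above 2000. DEPTOR binds and inhibits mTOR and is abundant in myelomas that overexpress MAF. It read 2560 untreated, 3524 at 6 h and 5429 at 24 h (1.08), by 1 probe set. Other genes known to depend on MAF did not share this. The list of MAF and its targets had a median of -0.00 over 11 genes. NUAK1 stood at 0.55 and RND3 at 0.44 there, MAF itself lay at -0.17 and the cyclin CCND2 at -0.37. In the mTORC1 and AMPK list, DEPTOR was the 1 of 26 genes past 2-fold, and the GTPase RHEB, which activates mTORC1, lay at -0.57.

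The rest of the higher genes had untreated signals of 584 or less. SNCAIP, which encodes synphilin, read 207 untreated, 533 at 6 h and 601 at 24 h (1.54), with a second probe set at 1.01. Without probe sets that may cross-hybridise it stood at -0.15, by a probe set too dim to be kept in the main results. MAML2, a coactivator of Notch, read 252, 595 and 596, with both probe sets past 2-fold (1.24 and 1.11). FRMD6, a FERM domain protein of the Hippo pathway, read 258, 929 and 606, also by both (1.23 and 1.12). These 3 were as high at 6 h or close to it. HEMGN, a nuclear protein of blood cells, read 288, 447 and 601 (1.06). MAP3K5, a stress-activated kinase known as ASK1, read 244, 350 and 502 (1.04), and JAKMIP2 read 233, 259 and 482 (1.05). These last 3 were highest at 24 h. SLC16A14, of the monocarboxylate transporter family, stood at 1.28 and IRAG2, a lymphoid membrane protein of the ER, at 1.11. Just short of 2-fold were RCSD1, a regulator of actin capping, at 0.98 and MYOM2, a muscle M-band protein, at 0.90.

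IRF4 read 1698 untreated, 2030 at 6 h and 3226 at 24 h, with probe sets at 0.93 and 0.82, and stood highest of the plasma cell genes. The list of 22 bright plasma cell and immunoglobulin genes had a median of -0.13, with 11 on each side of the bright median and 0 past 2-fold. XBP1, the driver of the secretory programme, read 8110, 5511 and 4695 (-0.79). CD38, a surface enzyme that consumes NAD, lay at -0.44. MZB1, an immunoglobulin chaperone, stood at 0.19 and SDC1, which encodes the plasma cell antigen CD138, at 0.08. Of 28 bright myeloma surface antigens, CD55, a complement inhibitor, was the 1 member past 2-fold (-1.02, other probe sets -0.90 and -0.38). LAX1 (-0.93) and GPRC5D (-0.80) lay within it, and CD48 stood at 0.64. Antigen presentation genes had a median of -0.23 over 26 genes, with HLA-DRA at -0.65, but lay above the bright median by 0.16 without probe sets that may cross-hybridise.

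Most metabolic and housekeeping lists lay close to the bright median. The aminoacyl-tRNA synthetases, which charge tRNAs for protein synthesis, had a median of 0.10, and 25 of 26 lay above the bright median. They differed little from each other, from HARS1 at -0.15 to VARS1 at 0.35, with 0 past 2-fold. Sterol and fatty acid synthesis had a median of -0.07 over 19 genes. MSMO1, a sterol oxidase, read 2951 untreated, 1990 at 6 h and 5030 at 24 h (0.77). HMGCS1, which begins the mevalonate pathway, read 929, 373 and 1416 (0.61). Both were thus low at 6 h and high at 24 h. TCA cycle and NAD shuttle genes had a median of -0.03 over 25 genes, with 0 past 2-fold and IDH1, the cytosolic isocitrate dehydrogenase, at 0.81. Glycolysis and HIF1A targets (26 genes) had a median of -0.13, ATF4 and integrated stress response genes (22 genes) -0.13, and NRF2 and glutathione genes (28 genes) -0.11.

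Breakdown pathways held few genes past 2-fold. The 38 bright lysosomal genes had a median of -0.04, and 26 lay above the bright median. Of these 38, GLA, alpha-galactosidase A, was the 1 past 2-fold, with signals of 1949 untreated, 1793 at 6 h and 688 at 24 h (-1.50). LAMP3 lay at -0.93 and the protease CTSB at -0.71. Autophagy had a median of -0.08 over 26 genes. Its 1 member past 2-fold was the receptor SQSTM1 (-1.30), whose probe sets disagreed, and ATG4C, which processes ATG8 proteins, stood highest at 0.86. The 42 bright proteasome genes had a median of -0.20, with 30 below the bright median and 0 past 2-fold. In the BCL2 family MCL1, on which myeloma cells depend, read 5760, 5495 and 3809 (-0.60), its 6 probe sets lying between -0.97 and -0.50. BAX stood at 0.19.

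Cell cycle lists held 1 gene past 2-fold, CCNG2. S phase genes had a median of -0.19 over 43 genes, with the origin subunit ORC6 lowest at -0.88. G2 and mitosis genes had a median of -0.17 over 50 genes, from ANLN at -0.81 to the kinetochore motor CENPE at 0.43. In G1, E2F8 (-0.78), CCNE2 (-0.76) and the CDK inhibitor CDKN1B (-0.64) lay low together within 2-fold. DNA repair genes (37) had a median of -0.09 and p53 targets (19) likewise -0.09, with the nuclease AEN at 0.89 and GADD45A at -0.81.

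**Figure D4:**
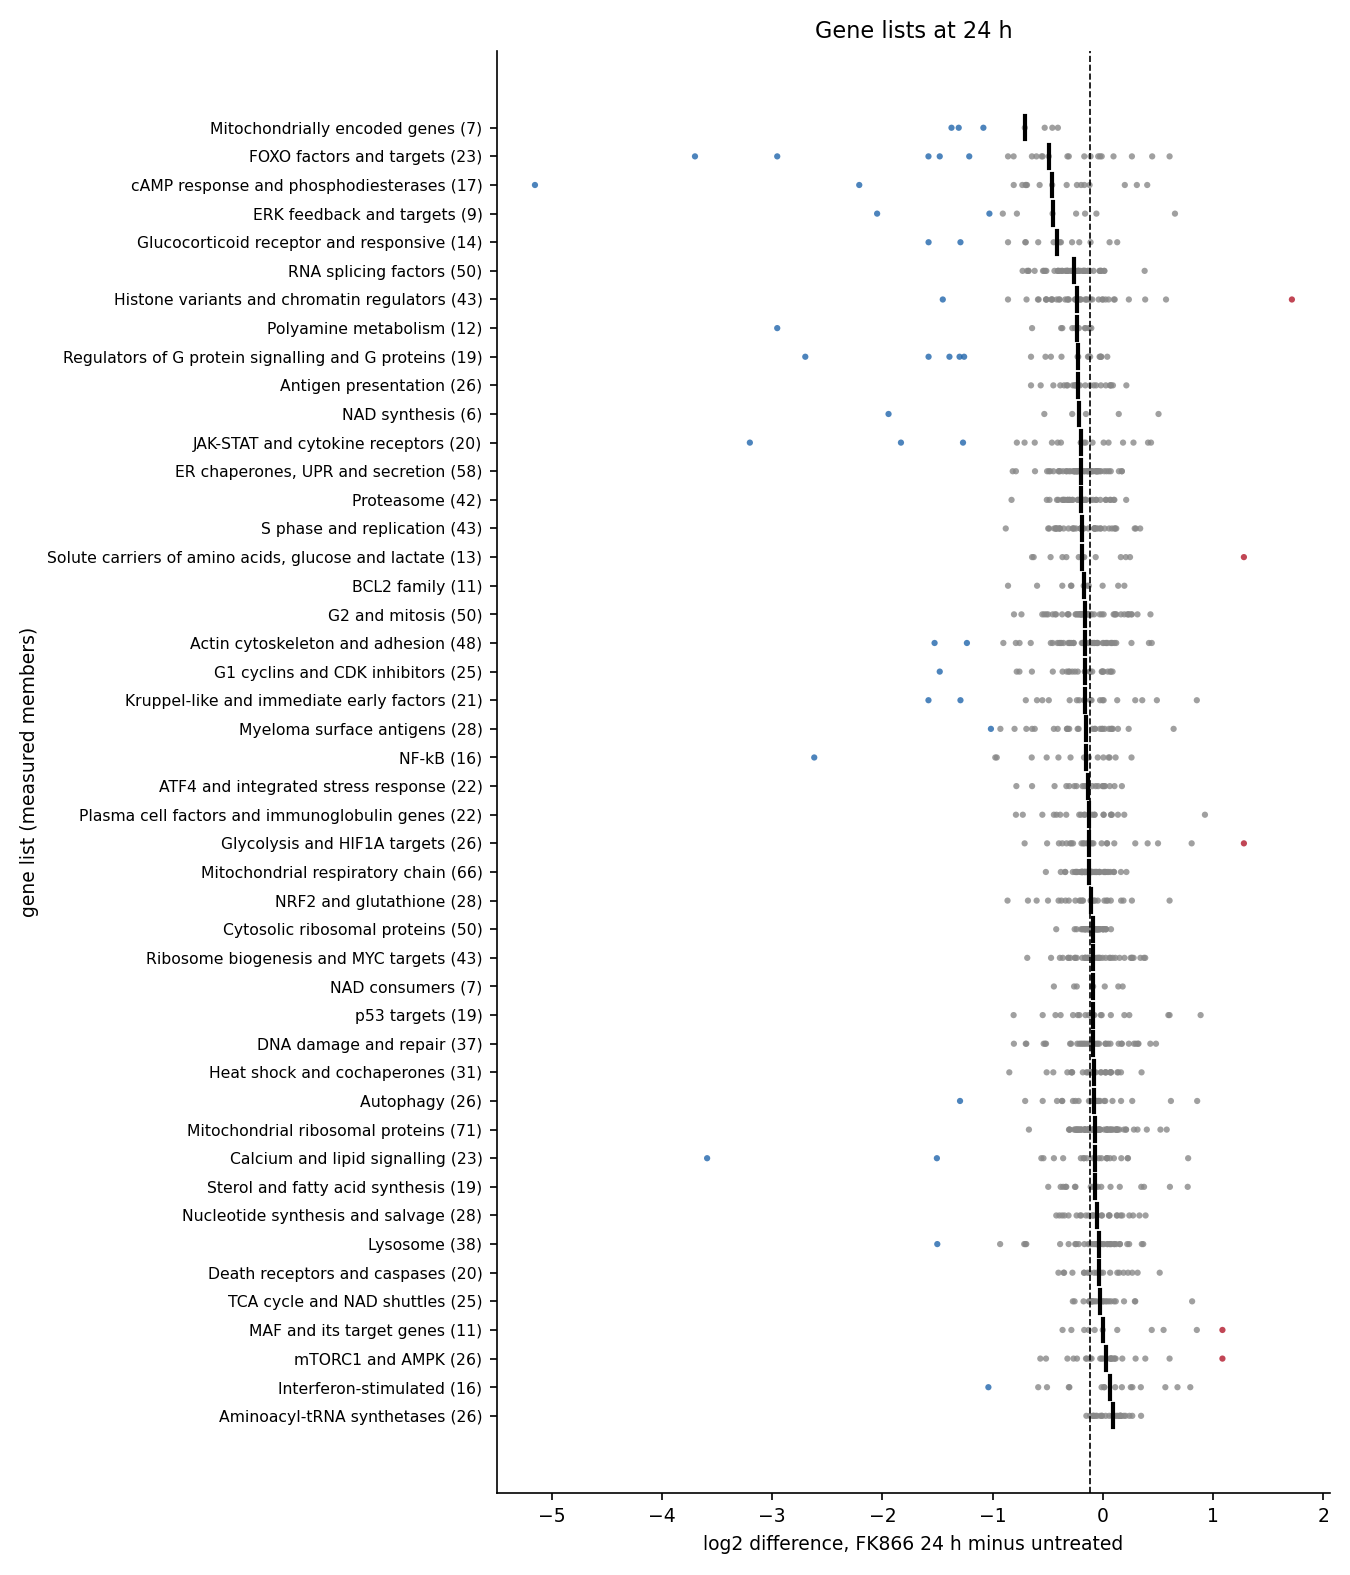
Log2 difference between FK866 24 h and untreated cells (horizontal axis) of the bright members of each gene list with at least 5 (rows), each point a gene and each black bar the list median. Blue and red points are past 2-fold, the dashed line is the median of all bright genes at -0.12, and the mitochondrially encoded genes lie lowest with a median of -0.71.

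The higher genes were long, as annotated in RefSeq. Their median gene length was 153 kb, against 44.5 kb for the lower genes and 32.3 kb for all bright genes. Of the 15 higher genes, 11 spanned 100 kb or more, against 22 of the 86 lower genes and 889 of 5529 bright genes (16.1%). In bins of length, at least 2-fold higher were 0% of genes under 10 kb and 0.0619% (1 gene) from 10 to 30 kb. The share was 0.15% (3 genes) from 30 to 100 kb, 1.04% (8) from 100 to 300 kb and 2.46% (3) at 300 kb or more. The median difference was -0.12 in the shortest and -0.03 in the longest genes, and the lower genes showed no such order (1.95%, 0.804%, 1.55%, 2.48% and 2.46%). Longer genes were also dimmer, with a median log2 signal of 9.93 in the shortest and 9.03 in the longest bin. The part of signal level in the order of the higher genes was not tested. The median length of higher genes was 81.4 kb after quantile normalization (27 genes) and after centring (45 genes), and 71.7 kb for the 92 genes at least 1.5-fold higher.

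**Figure D5:**
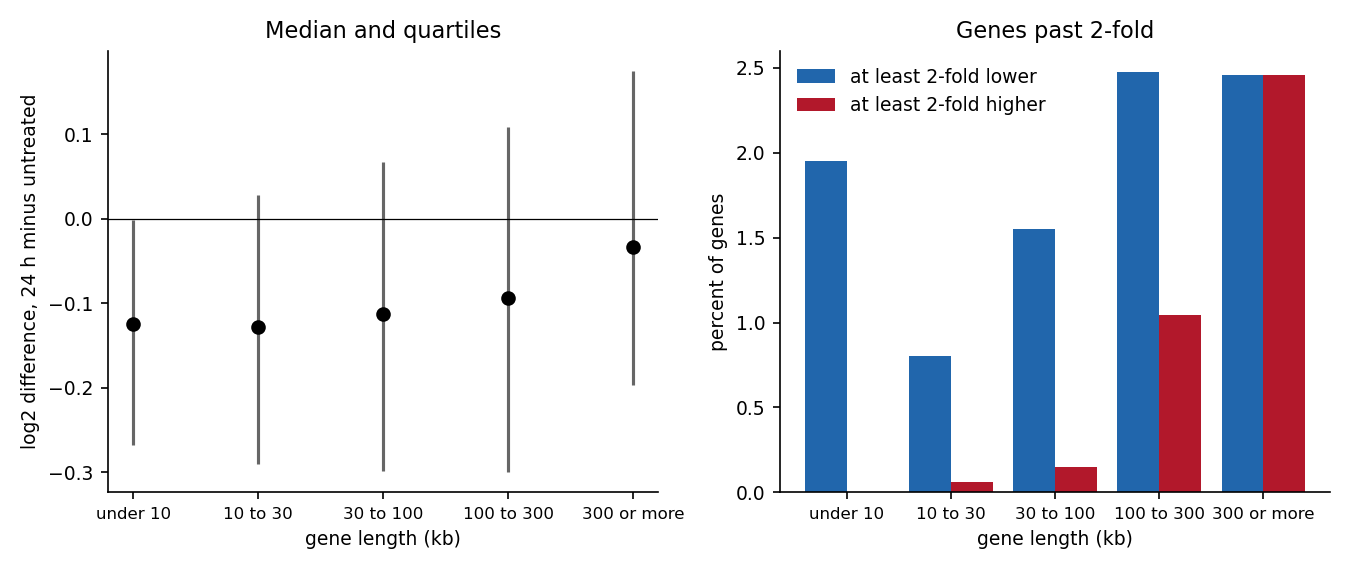
Bright genes in 5 classes of gene length (horizontal axis, kb): the left panel plots the median log2 difference between FK866 24 h and untreated cells with quartiles as lines, the right panel the percent of genes at least 2-fold lower or higher. The share of higher genes is 0% in the shortest class and 2.46% in the longest.

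Promoters of the higher genes were also poorer in G and C. Their 28 windows had a median GC content of 48.3%, against 66.7% in the 129 windows of lower genes and 64.7% in 6844 windows of bright genes. The median number of CpG dinucleotides was 5, 26 and 26. After quantile normalization the median GC content of the higher genes was 60.3%, and after centring 63.5%. The letters TATAAA of the TATA box, on either strand, occurred in 28.6% of windows of higher genes, 10.1% of lower and 6.20% of all. In the higher genes the matches lay 48 to 222 bases before a start, or just past it in SNCAIP. They were thus outside the usual position of a TATA box. Among lower genes, 6 had a match between 27 and 33 bases before a start, where a TATA box normally lies: CXCR4, TSC22D3, RGS1, HEXIM1, CABLES1 and ZSWIM6. Positions were not taken for all bright genes, so no share over them stands beside this count. In ZSWIM6 the gene's strand reads TTTATA, and TATAAA lies on the opposite strand. CXCR4, TSC22D3 and RGS1 are printed as examples, with the match in capitals. In CXCR4 the capitals mark TTTATA, and TATAAA on the gene's strand begins within them.
CXCR4, chr2:136118150-136118239, minus strand, match 32 bases before the start: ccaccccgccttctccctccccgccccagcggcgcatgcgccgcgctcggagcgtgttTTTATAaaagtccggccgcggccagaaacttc
TSC22D3, chrX:107717063-107717152, minus strand, match 29 bases before the start: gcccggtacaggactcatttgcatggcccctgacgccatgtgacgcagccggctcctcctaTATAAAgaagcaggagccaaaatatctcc
RGS1, chr1:192575683-192575772, plus strand, match 27 bases before the start: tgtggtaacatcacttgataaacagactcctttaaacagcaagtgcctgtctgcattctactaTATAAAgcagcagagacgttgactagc
The element of ETS factors, CCGGAAGT, occurred in 9.18% of all windows, 2.33% of lower and 0% of higher ones. The FOXO letters TGTTTAC occurred in 2.98%, 2.33% and 3.57%, and the heat shock letters GAANNTTC in 4.84%, 6.20% and 3.57%. Windows of a gene with several starts can overlap, and the smaller sets hold few windows.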

How the data were processed

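The table the authors deposited holds linear intensity values, 1 for each probe set on each array, from 0.1 to 20257.9, with medians of 20.5 (untreated), 17.4 (6 h) and 17.2 (24 h). Labelling of total RNA followed the Affymetrix procedure for biotinylated cRNA, per the labels. The summary of probes and the scaling of arrays are not given in the sources used here. The table holds 54675 probe sets, 62 of them controls. GEO's platform annotation, dated 2016, gives 1 symbol for 41097, several for 1801 and none for 11777, and only those with 1 symbol name a gene here.

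Signals under 16 were set to 16 and log2 values taken. Probe sets with a mean log2 value at or above the median of non-control probe sets (signal 19.1) were kept, and each gene is read by the brightest of its kept ones. Bright genes have a mean log2 signal of at least 8. Called means at least 2-fold, a fixed size, since 1 array a group allows no test. Named genes are the 30 lowest and 15 highest bright genes whose kept probe sets point the same way and lie above the floor on both arrays, the 4 lowest and 4 highest bright members of each list and any past 2-fold, NAMPT, and genes with the most probe sets past 2-fold. The genes described and the gene lists were chosen with earlier results of these data known. The 24 h and 6 h differences share the untreated array, so they are given only side by side. Alternatives covered scaling, floor, pseudocount, probe sets, level and size. Promoters and gene lengths are RefSeq's (GRCh38.p14). Software was Python 3.11.15, numpy 2.4.6, pandas 2.3.3 and matplotlib 3.10.9.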

Additional observations from a re-analysis of the deposited data

Results flagged for a closer look

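Bright probe sets that name no single gene were outside the gene values above, and 4 of them were at least 2-fold higher at 24 h than in the untreated control array. The probe set that the annotation assigns to CCL3L3, CCL3L1 and CCL3, near-identical chemokine genes, had a signal of 8822.5 at 24 h and 3719.4 untreated. The probe set assigned to both PLD6 and FLCN had 394.3 at 24 h and 179.4 untreated. The remaining 2, which have no gene symbol in the annotation, had signals of 2068 and 1318.7 at 24 h against 907.5 and 374.1 untreated. None of these differences has a replicate check.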

How the results depend on the processing

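Among bright genes, the 86 lower ones became 53 after centring on array medians, 47 by the mean over kept probe sets, 53 without probe sets that may cross-hybridise, 56 with the level limit at a log2 of 9 and 50 when every kept probe set had to pass 2-fold, and 379 at 1.5-fold and 24 at 3-fold. The 15 higher ones became 27 after quantile normalization, 45 after centring, 6 by the mean over probe sets, 29 and 6 with the level limit at 7 and 9, 8 when every probe set had to pass, 92 at 1.5-fold and 1 at 3-fold. Over all kept genes, the 495 lower and 135 higher became 264 and 288 after quantile normalization, 237 and 358 after centring, 161 and 36 with a floor of 64, 158 and 25 with log2(signal + 32), 1676 and 595 at 1.5-fold and 99 and 16 at 3-fold; subtracting the median difference gave 207 higher. The median of bright genes was 0.14 after centring. Without probe sets that may cross-hybridise, DIPK1A (-0.22), FCHSD2 (0.13) and SNCAIP (-0.15) turned their direction. The DIPK1A value came from a dim probe set reading 18.6 untreated and 10.9 at 24 h, the latter under the floor. That of SNCAIP came from a probe set too dim to be kept in the main results. The cause of these shifts was not tested, beyond the fewer probe sets, stricter or looser sizes and other levels that some settings bring by construction. Leaving out a replicate was not possible with 1 array a group. No paired analysis was possible because each group has 1 array. Dim signal is a further limit: 10.7% of genes with a mean signal of 16 to 32 were past 2-fold on the lower side.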

Other observations

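The long non-coding RNA NEAT1 builds paraspeckles, nuclear bodies that hold back RNA and proteins. All 5 bright probe sets that the annotation assigns to both NEAT1 and MIR612 were at least 2-fold lower at 24 h. The brightest read 5551 untreated, 3358 at 6 h and 1975 at 24 h (-1.49), and the others differed by -1.79, -1.39, -1.35 and -1.34. Among 482 bright probe sets with several symbols, 10 were at least 2-fold lower and 2 higher.

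Probe sets of inducible HSP70 were high at 6 h and low at 24 h. The dimmest, which the annotation assigns to both HSPA1A and HSPA1B, read 213 untreated, 1026 at 6 h and 79.6 at 24 h (-1.42). A brighter one with the same assignment read 1203, 2171 and 666 (-0.85). Another, also assigned to HSPA1L, read 586, 1439 and 385 (-0.61). The heat shock list of singly named genes had a median of -0.08 over 31 bright genes, with DNAJB1, a partner of HSP70, at -0.85.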
